A study of Homo sapiens with 12 samples.

Results

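The iron genes described here are 9 of the 26475 gene symbols measured: *TFRC*, *STEAP3* and *SLC11A2*, which act in uptake, *FTH1*, *FTL* and *NCOA4*, which act in storage and its release, *SLC40A1*, which acts in export, and *IREB2* and *ACO1*, which encode the iron regulatory proteins. They were chosen by name, with earlier results of these data known, so shares of members called are not blind to the data. Each symbol was found once in the counts. RNA was sequenced from 12 cultures of the human ovarian cancer cell lines PA-1, from a teratocarcinoma, and SK-OV-3, from an adenocarcinoma. Each line gave 3 cultures with the vehicle DMSO and 3 with BAY-850, a small molecule inhibitor of the ATAD2 bromodomain, at 5 µM for 48 h. No further agent is named for any of the 4 groups. PA-1 was grown in DMEM and SK-OV-3 in RPMI, both with fetal bovine serum, so a difference between the untreated lines and a difference between the media cannot be told apart. Each response also rests on 1 line, 1 dose and 1 time, and its error is the spread between these cultures.

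Total counts were between 34544505 and 51840233 per library. In 11 libraries, 17437 to 18440 genes had a count, and in SK-OV-3 with BAY-850, replicate 3, which had the highest total, 15634 did. The SK-OV-3 responses of *STEAP3*, *SLC11A2*, *FTH1*, *SLC40A1*, *IREB2* and *HMOX1* and of the *FTH1* to *FTL* ratio are also given without that library. Of the markers listed for each line, most separated the lines: *LIN28A*, a marker of undifferentiated cells, was between 705 and 859 CPM (counts scaled to a fixed library size) in PA-1 and at most 0.332 in SK-OV-3, and *KRT7*, an epithelial keratin, was between 375 and 477 CPM in SK-OV-3 and at most 0.17 in PA-1. 3 markers listed for SK-OV-3 did not. *KRT18* was between 325 and 363 CPM in PA-1 and between 229.5 and 281 in SK-OV-3, *KRT8* was between 504 and 595 in PA-1 and between 395 and 618 in SK-OV-3, and *MUC16* did not exceed 1.01 CPM in SK-OV-3. The leukocyte marker *PTPRC* did not exceed 0.0984 CPM in any library and the erythroid marker *HBB* had no count. The endothelial marker *PECAM1* was between 22.9 and 26.2 CPM in PA-1 and between 2.51 and 3.75 in SK-OV-3, and the fibroblast marker *COL1A1* was between 425 and 613 CPM in PA-1 and between 82.1 and 172 in SK-OV-3; the part of either in the results was not tested. RNA came from whole cultures, so fewer cells of one kind and less RNA per cell cannot be told apart.

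Cells take up iron bound to transferrin through the transferrin receptor (*TFRC*). In the endosome STEAP3 reduces the iron and the transporter DMT1 (*SLC11A2*) carries it to the cytosol. Iron that is not used is stored in ferritin, a shell of heavy (*FTH1*) and light (*FTL*) chains, from which NCOA4 releases it by bringing ferritin to the lysosome, and ferroportin (*SLC40A1*) is the exporter. When iron is scarce, the iron regulatory proteins IRP1 (*ACO1*) and IRP2 (*IREB2*) bind hairpins in mRNAs that are called iron-responsive elements. Binding in the 5′ untranslated region (UTR) blocks translation, as in both ferritin chains and ferroportin, and binding in the 3′ UTR of *TFRC* protects the mRNA from decay. RNA counts can reflect the second kind of control and not the first, since they do not measure translation. A higher count does not separate slower decay of an mRNA from more transcription, and neither was tested here.

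The letters of such hairpins were present in 4 of the 9 genes. The pattern searched was a C, 5 bases of a stem arm with no fixed letters, the loop CAGTGN with any last letter but G, and 5 bases that pair with the first arm. The sequences below are shown because they mark the mRNAs that the iron regulatory proteins bind. Each is the sense strand, 5′ to 3′, from GENCODE release 29 transcripts on GRCh38, with the loop in capitals. *FTH1* held 1 match in its 5′ UTR (chr11:61967574-61967602, minus strand), *FTL* held 1 in its 5′ UTR (chr19:48965335-48965363, plus strand), and *SLC40A1* held 1 in its 5′ UTR (chr2:189580661-189580689, minus strand).
FTH1: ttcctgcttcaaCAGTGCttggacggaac
FTL: ctcttgcttcaaCAGTGTttggacggaac
SLC40A1: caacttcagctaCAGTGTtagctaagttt

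*TFRC* held 4 matches in its 3′ UTR on the minus strand of chromosome 3. They lie at chr3:196050979-196051007, chr3:196050575-196050603, chr3:196050510-196050538 and chr3:196050463-196050491, in the order of the mRNA (a to d).
TFRC a: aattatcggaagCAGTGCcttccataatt
TFRC b: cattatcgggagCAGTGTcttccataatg
TFRC c: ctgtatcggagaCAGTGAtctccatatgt
TFRC d: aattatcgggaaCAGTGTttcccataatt

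The same pattern was present in the 5′ UTR of 22 of 19627 protein-coding genes (0.112%) and in the 3′ UTR of 101 (0.515%). *STEAP3*, *SLC11A2*, *NCOA4*, *IREB2* and *ACO1* held no match, which says only that these letters were not in their annotated UTRs. An element of another form is missed by this pattern, as happened for *EPAS1* (below), so no match does not mean no element. Of the 4 genes with a match, *TFRC* changed in PA-1 by the test given below, and *FTH1* and *FTL* changed in SK-OV-3. The *FTL* call was lost under 5 of 17 other settings, and *SLC40A1* was too low for a response to be measured. Members without a match changed too: *STEAP3* in PA-1, and *SLC11A2* and *ACO1* in SK-OV-3. *NCOA4* and *IREB2* passed in neither line. The background share called was 7.13% for PA-1 and 20.4% for SK-OV-3. A link between a match and a response was not tested.

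In untreated cells, both lines made far more ferritin mRNA than mRNA of any other member, and the lines differed in which chain led. Levels between genes were compared as CPM per kilobase of 1 transcript per gene. In PA-1 with DMSO, *FTL* stood at 1922 ± 55.5 (SD, n = 3) and *FTH1* at 1266 ± 98.8, followed by *NCOA4* at 61.8 ± 2.53 and *TFRC* at 29.9 ± 1.83. The lower members in PA-1 were *IREB2* at 15.6 ± 0.87, *ACO1* at 13.4 ± 0.479, *SLC11A2* at 10.8 ± 0.937, *STEAP3* at 2.97 ± 0.217 and *SLC40A1* at 0.107 ± 0.0734. In SK-OV-3 with DMSO, *FTH1* stood at 8053 ± 581 and *FTL* at 1209 ± 103, followed by *NCOA4* at 105 ± 6.84, *TFRC* at 49.3 ± 3.07 and *IREB2* at 18.3 ± 1.34. *SLC11A2* at 10 ± 0.472, *STEAP3* at 6.78 ± 0.224, *ACO1* at 4.97 ± 0.297 and *SLC40A1* at 0.14 ± 0.0279 closed the order there. No neighbours in either order overlapped between their 3 libraries, and with BAY-850 the only neighbours that did were *IREB2* and *ACO1* in PA-1. The lower ranks depend on that choice of transcript. Per kilobase of all exons of a gene, *ACO1* (13.3) was above *IREB2* (10.5) in PA-1 with DMSO, *STEAP3* (5.82) was above *SLC11A2* (5.72) in SK-OV-3 with DMSO, and *TFRC* (49.1) was above *NCOA4* (33.2) in PA-1 with BAY-850, while *FTL* in PA-1 and *FTH1* in SK-OV-3 still led.

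Of the 9 members, 7 differed between the untreated lines by edgeR's quasi-likelihood test (Benjamini-Hochberg adjusted p under 0.05), 5 of them higher in SK-OV-3 and 2 lower. The same test called 80.3% of 16070 genes, 40.1% higher and 40.2% lower, so a share of this size is near the background and says nothing particular about iron genes. *FTH1* was 6.35-fold higher in SK-OV-3 (log2 difference 2.67, SE 0.0693, adjusted p = 2.04e-12), the ferritin heavy chain being the one with ferroxidase activity. *STEAP3* was 2.28-fold higher (1.19, SE 0.0933, adjusted p = 9.11e-08), *NCOA4* 1.7-fold (0.76, SE 0.061, adjusted p = 1.13e-07), *TFRC* 1.65-fold (0.72, SE 0.0638, adjusted p = 3.18e-07) and *IREB2* 1.16-fold (0.22, SE 0.0668, adjusted p = 0.00878). The other direction was found for *ACO1*, which was 2.7-fold lower in SK-OV-3 (-1.44, SE 0.0652, adjusted p = 4.23e-10), and for *FTL*, 1.59-fold lower (-0.67, SE 0.0616, adjusted p = 4.33e-07). *SLC11A2* (-0.11, SE 0.0765, adjusted p = 0.207) and *SLC40A1* (0.35, SE 0.586, adjusted p = 0.592) did not pass the test. For each of the 7 that did, the libraries of the lines did not overlap, as for 82.3% of all genes tested.

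**Figure D1:**
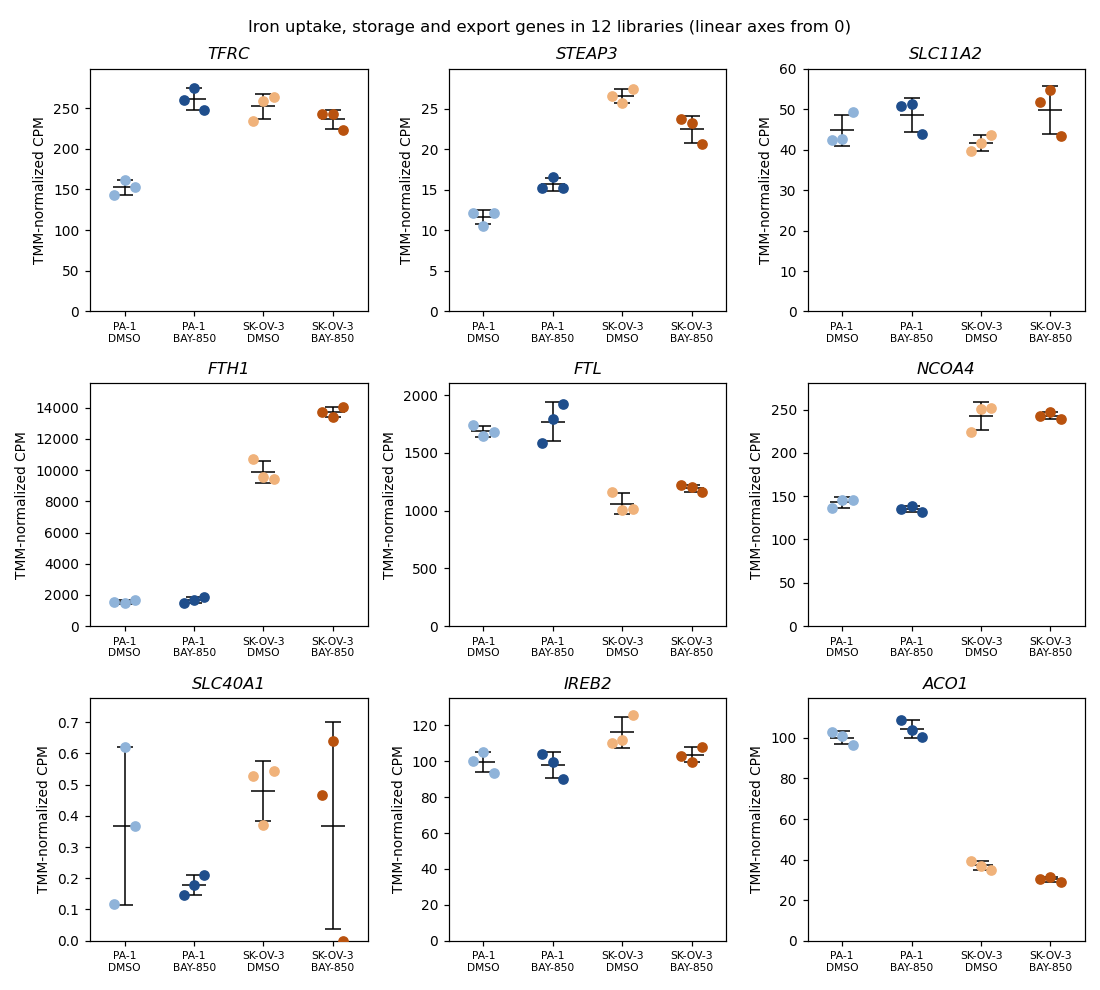
Level of each of the 9 genes in the 12 libraries as TMM-normalized CPM on linear axes from 0; points are libraries, the wide bar is the mean and the whiskers are 1 SD of 3 libraries. *TFRC* was between 143 and 162 CPM in PA-1 with DMSO and between 248 and 275 with BAY-850, and *FTH1* in SK-OV-3 was between 9431 and 10719.9 CPM with DMSO and between 13409.6 and 14062 with BAY-850.

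The members that passed the test with BAY-850 were not the same in the lines. In PA-1, 2 of the 8 members tested rose, *TFRC* and *STEAP3*, both of the uptake step, and none fell. The test called 7.13% of 15212 genes in PA-1, 4.65% higher and 2.48% lower, and the median log2 fold change was 0.087 over the members against -0.0019 over all genes. In SK-OV-3, 4 of 9 members changed: *FTH1*, *FTL* and *SLC11A2* rose and *ACO1* fell. There the test called 20.4% of 15348 genes, 10.8% higher and 9.56% lower, and the median was -0.083 over the members against -0.0091 over all genes. Of these 6 responses, *TFRC* in PA-1 and *FTH1* in SK-OV-3 passed under each of 17 other settings, and the remaining ones were lost under 4 to 10 of them, as given with each gene. The response itself differed between the lines for 4 members, *TFRC*, *STEAP3*, *FTH1* and *ACO1*, 3 of them lower in SK-OV-3 and *FTH1* higher, against 14.5% of 16830 genes tested, 6.7% higher and 7.77% lower. In the plot of responses these 4 are the genes whose points stand farthest apart.

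**Figure D2:**
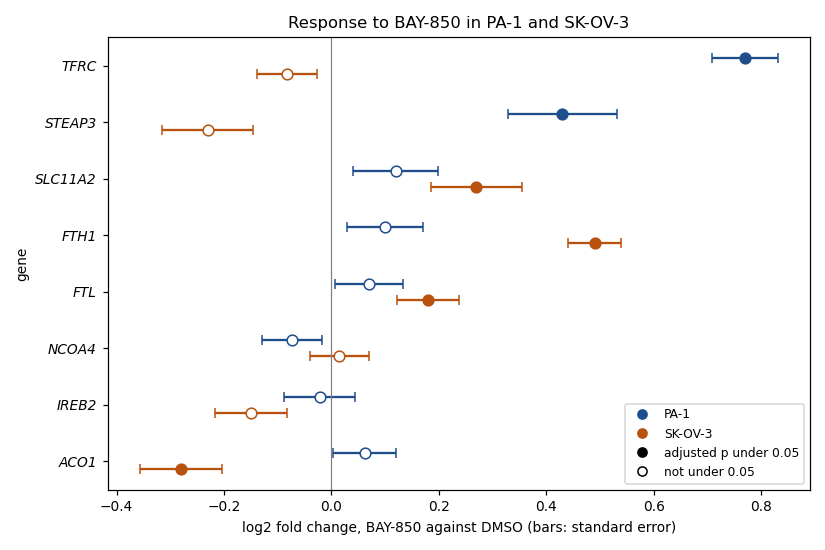
log2 fold change with BAY-850 against DMSO (horizontal axis) for 8 members in PA-1 (blue) and SK-OV-3 (orange), with standard errors from edgeR's quasi-likelihood fit; filled points have an adjusted p under 0.05, and *SLC40A1* is left out because it was tested in SK-OV-3 alone. *TFRC* stands at 0.77 in PA-1 and -0.083 in SK-OV-3, and *FTH1* at 0.10 and 0.49.

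*TFRC* (ENSG00000072274, chr3:196027183-196082189, minus strand, GRCh38) encodes the receptor for iron-loaded transferrin. In PA-1 its level was 143, 162 and 153 CPM in the DMSO libraries and 260.2, 275 and 248 CPM in the BAY-850 libraries. All 3 treated libraries were above all 3 controls, by a margin larger than the spread of either group. *TFRC* rose 1.71-fold in PA-1 (log2 fold change 0.77, SE 0.0618, edgeR adjusted p = 2.07e-06), and the log2 fold change was between 0.73 and 0.84 under the 17 other settings. In SK-OV-3 the level was 234, 259 and 263 CPM with DMSO and 243, 243 and 223 CPM with BAY-850. The groups overlapped there, and *TFRC* did not pass the test (-0.083, SE 0.0561, edgeR adjusted p = 0.339). The response in SK-OV-3 was lower than that in PA-1 by 0.87 on the log2 scale (-0.87, SE 0.0887, edgeR adjusted p = 1.32e-05). With BAY-850, PA-1 cells reached 261 ± 13.5 CPM (SD, n = 3), beside 252 ± 15.7 in SK-OV-3 with DMSO.

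*STEAP3* (ENSG00000115107, chr2:119223831-119265652, plus strand), the reductase of the endosome, was the other member that rose in PA-1. Its level was 12.1, 10.6 and 12.1 CPM with DMSO and 15.2, 16.6 and 15.2 CPM with BAY-850. The treated libraries were all above the controls. *STEAP3* rose 1.35-fold (0.43, SE 0.102, edgeR adjusted p = 0.0201), a call lost when the trend on GC content was removed (adjusted p = 0.0572), with scaling by library size only (0.0734), without DMSO replicate 2 (0.103) and without BAY-850 replicate 2 (0.109). In SK-OV-3 the level was 26.6, 25.7 and 27.4 CPM with DMSO and 23.7, 23.2 and 20.6 CPM with BAY-850. Here the treated libraries were all below the controls, but the difference did not pass the test (-0.23, SE 0.0847, edgeR adjusted p = 0.08). It passed with the GC trend removed (-0.25, adjusted p = 0.0361). Without BAY-850 replicate 3 the difference was -0.18 (edgeR adjusted p = 0.131). The responses in the lines differed by 0.67 on the log2 scale, with SK-OV-3 the lower (-0.67, SE 0.134, edgeR adjusted p = 0.00344), and this held under all 22 other settings. An antisense gene, *STEAP3-AS1*, had at most 5.35% of the *STEAP3* count in any library, and whether counting used the strand is not given in the sources used here.

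*SLC11A2* (ENSG00000110911, chr12:50979401-51028566, minus strand) encodes DMT1, which moves iron out of the endosome. In SK-OV-3 its level was 39.7, 41.7 and 43.6 CPM with DMSO and 51.8, 54.7 and 43.3 CPM with BAY-850. BAY-850 replicate 3, the library with few low genes, lay among the controls. *SLC11A2* rose 1.21-fold (0.27, SE 0.0847, edgeR adjusted p = 0.0426), and without that library the log2 fold change was 0.36 (adjusted p = 0.00252). The call was lost under 10 of 17 other settings, among them leaving out any one of the other 5 libraries of the line (adjusted p between 0.0765 and 0.169). In PA-1 the level was 42.5, 42.7 and 49.3 CPM with DMSO and 50.7, 51.2 and 43.8 CPM with BAY-850, with overlap and no call (0.12, SE 0.079, edgeR adjusted p = 0.398). The difference between the lines' responses did not pass the test either (0.14, SE 0.132, edgeR adjusted p = 0.522).

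*FTH1* (ENSG00000167996, chr11:61959718-61967660, minus strand), the ferritin heavy chain, was the member with the smallest p in SK-OV-3. Its level there was 10719.9, 9542 and 9431 CPM with DMSO and 13719.8, 13409.6 and 14062 CPM with BAY-850. The groups did not overlap, and *FTH1* alone took 0.959% to 1.05% of a library's counts with DMSO and 1.37% to 1.46% with BAY-850. *FTH1* rose 1.4-fold (0.49, SE 0.0495, edgeR adjusted p = 5.15e-05), with a range of 0.45 to 0.55 on the log2 scale under the other settings and 0.45 without BAY-850 replicate 3. In PA-1 the level was 1513, 1462 and 1693 CPM with DMSO and 1509, 1671 and 1834 CPM with BAY-850, which overlapped and did not pass (0.10, SE 0.0709, edgeR adjusted p = 0.405). The response was higher in SK-OV-3 by 0.37 on the log2 scale (SE 0.0989, edgeR adjusted p = 0.0203), a call lost without PA-1 DMSO replicate 3 (0.0514), SK-OV-3 DMSO replicate 2 (0.0553) or SK-OV-3 DMSO replicate 3 (0.0581).

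*FTL* (ENSG00000087086, chr19:48965301-48966878, plus strand), the ferritin light chain, moved less. In SK-OV-3 its level was 1165, 1002 and 1018 CPM with DMSO and 1221, 1201 and 1160.3 CPM with BAY-850. DMSO replicate 1 lay within the range of the treated libraries. *FTL* rose 1.13-fold (0.18, SE 0.0571, edgeR adjusted p = 0.0438). The call was lost with all 12 libraries in one fit (0.0878) and without DMSO replicate 2 or 3 or BAY-850 replicate 1 or 2 (between 0.103 and 0.193). In PA-1 its level was 1741, 1645 and 1678 CPM with DMSO and 1589, 1793 and 1924 CPM with BAY-850, with overlap (0.07, SE 0.0627, edgeR adjusted p = 0.543). The difference between the responses was 0.10 (SE 0.095, edgeR adjusted p = 0.533).

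The ratio of *FTH1* to *FTL* counts is taken within a library and so does not depend on scaling between libraries. In SK-OV-3 it was 9.2, 9.52 and 9.26 with DMSO and 11.2, 11.2 and 12.1 with BAY-850. The groups did not overlap, and the mean ratio went from 9.33 ± 0.172 to 11.5 ± 0.532 (SD, n = 3), with p = 0.1 in an exact two-sided permutation test, the smallest p that 3 against 3 libraries can give. Without BAY-850 replicate 3 the ratio rose by 0.26 on the log2 scale, against 0.30 with that library. In PA-1 it was 0.869, 0.889 and 1.01 with DMSO and 0.95, 0.932 and 0.953 with BAY-850, with overlap and p = 0.6 in the exact permutation test. Per kilobase of transcript the mean ratio was 0.659 ± 0.0541 in PA-1 and 6.66 ± 0.123 in SK-OV-3 with DMSO, so the mRNA in excess was that of the light chain in PA-1 and of the heavy chain in SK-OV-3. Both ferritin genes have many processed copies in the genome, 25 of *FTH1* and 16 of *FTL* in GENCODE. Only 2 and 1 of them had a row in the counts, with at most 0.0194% of the parent's count, so reads of the remaining copies, if any, are inside or outside the parent's count in a share that was not tested.

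Uptake set against storage was read as *TFRC* counts per 1000 *FTH1* counts, a ratio chosen after the values of both genes had been seen and given with no test. In PA-1 it was 94.8, 111 and 90.4 with DMSO and 172, 165 and 135 with BAY-850. In SK-OV-3 it was 21.9, 27.2 and 27.9 with DMSO and 17.7, 18.1 and 15.8 with BAY-850. The treated libraries were thus all above the controls in PA-1 and all below them in SK-OV-3, through *TFRC* in the first line and mainly through *FTH1* in the second.

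**Figure D3:**
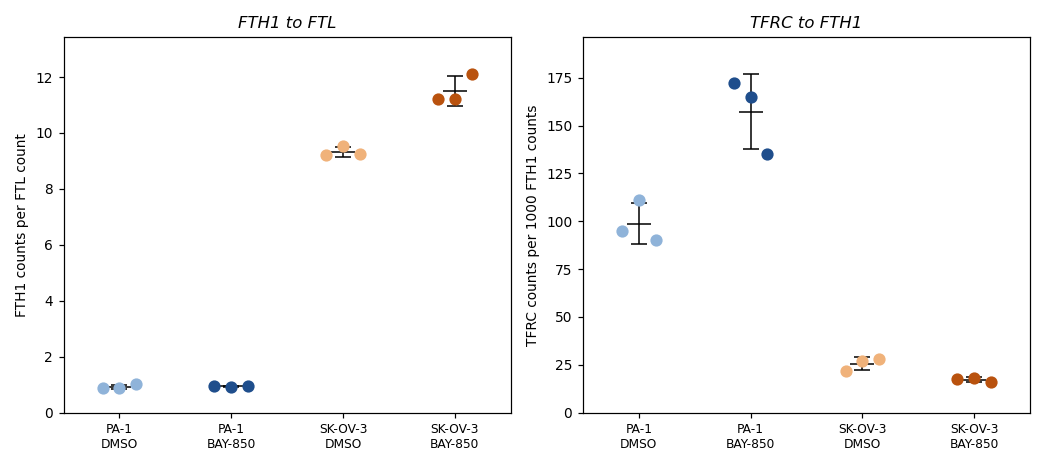
Ratios of counts within each of the 12 libraries, *FTH1* per *FTL* count (left) and *TFRC* per 1000 *FTH1* counts (right), on linear axes from 0; points are libraries, the wide bar is the mean and the whiskers are 1 SD of 3 libraries. The left ratio is near 1 in PA-1 and between 9.2 and 12.1 in SK-OV-3, and the right ratio is higher with BAY-850 in PA-1 and lower with BAY-850 in SK-OV-3.

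*NCOA4* (ENSG00000266412, chr10:46005088-46030714, minus strand), the cargo receptor that brings ferritin to the lysosome, passed the test in neither line. In PA-1 its level was 136, 146 and 146 CPM with DMSO and 135, 139 and 132 CPM with BAY-850 (-0.073, SE 0.0563, edgeR adjusted p = 0.468). In SK-OV-3 it was 224, 251 and 252 CPM with DMSO and 242, 247 and 239 CPM with BAY-850 (0.015, SE 0.0548, edgeR adjusted p = 0.883). The groups overlapped in both lines, and the difference between the responses was 0.077 (SE 0.0762, edgeR adjusted p = 0.562).

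*SLC40A1* (ENSG00000138449, chr2:189560579-189583758, minus strand), which encodes the exporter ferroportin, was nearly absent from both lines. The expected counts were 4, 28 and 13 in PA-1 with DMSO and 6, 7 and 8 with BAY-850, too few to enter the test in that line. In SK-OV-3 they were 21, 14 and 21 with DMSO and 19, 27 and 0 with BAY-850. The count of 0 belongs to replicate 3, the library with the highest total and the fewest genes with a count. By counting error alone it allows up to 3 counts (0.0579 CPM), a limit that does not cover a loss of low genes from that library. Replicate 3 sets the sign: the log2 fold change was -0.40 with it (SE 1.02, edgeR adjusted p = 0.827) and 0.20 without it (adjusted p = 0.822). No response of ferroportin mRNA was detectable at this depth.

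*ACO1* (ENSG00000122729, chr9:32384603-32454769, plus strand) encodes IRP1, which is the cytosolic aconitase when it holds an iron-sulfur cluster and binds RNA when it does not. In SK-OV-3 its level was 39.4, 37 and 35 CPM with DMSO and 30.3, 31.4 and 29.1 CPM with BAY-850. The treated libraries were all below the controls. *ACO1* fell by 0.28 on the log2 scale (SE 0.0771, edgeR adjusted p = 0.024), a call lost without DMSO replicate 1 or 2 or BAY-850 replicate 1 or 2 (adjusted p between 0.056 and 0.0876). In PA-1 its level was 103, 101 and 96.4 CPM with DMSO and 109, 104 and 100.2 CPM with BAY-850, with overlap (0.062, SE 0.0583, edgeR adjusted p = 0.563). The response was lower in SK-OV-3 than in PA-1 (-0.36, SE 0.0874, edgeR adjusted p = 0.0131), which was lost only with scaling by library size (adjusted p = 0.0621) among the 22 other settings.

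*IREB2* (ENSG00000136381, chr15:78437431-78501456, plus strand) encodes IRP2, whose protein is degraded when iron is plentiful. In SK-OV-3 its level was 110.3, 112 and 126 CPM with DMSO and 103, 99.8 and 108 CPM with BAY-850. The treated libraries were below the controls, but *IREB2* did not pass the test (-0.15, SE 0.0672, edgeR adjusted p = 0.155), nor without BAY-850 replicate 3 (-0.19, edgeR adjusted p = 0.0502). In PA-1 it was 100, 105 and 93.6 CPM with DMSO and 104, 99.7 and 90.1 CPM with BAY-850, with overlap (-0.022, SE 0.0659, edgeR adjusted p = 0.886). Counted over members, the libraries of the groups did not overlap for 2 of 8 in PA-1, where 27.5% of all genes tested did not overlap, and for 4 of 9 in SK-OV-3, where 38.6% did not.

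The genes whose levels ran most like those of *TFRC* and of *FTH1* were named by Pearson's r of log2 CPM over the 12 libraries, after the mean of each line had been subtracted, among 12060 genes with at least 1 CPM on average in both lines. For *TFRC* they were *HERC3* (r = 0.9738), *FAM13A* (0.9639), *HILPDA* (0.9607), *AK4* (0.9601) and *SLC2A1* (0.9569). For *FTH1* they were *OSBPL2* (r = 0.9918), *OGFR* (0.9812), *SHMT2* (0.9739), *IFITM3* (0.972) and *TPT1-AS1* (0.9707). These values are a description: the libraries share the 4 groups, so a gene with a similar response in both lines ranks high.

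Beyond the 9 members, 85 other genes of iron metabolism were listed by role, all with a row in the counts. In PA-1, 73 of them were tested, 5 rose and none fell, and in SK-OV-3, 72 were tested, 10 rose and 7 fell. In PA-1 the count was 2 without DMSO replicate 2, 3 without DMSO replicate 1 or BAY-850 replicate 2, 7 without BAY-850 replicate 3, of which 3 fell, and 9 by DESeq2, of which 4 fell. In SK-OV-3 it was 7 without DMSO replicate 2, 11 without DMSO replicate 3 and 10 without BAY-850 replicate 2. With all 12 libraries in one fit it was 22 there, of which 12 fell. By the test above, the shares were close to the 7.13% and 20.4% of all genes, and the medians of the log2 fold changes were -0.0099 and 0.013. Of the 12 other uptake genes tested in PA-1, *CYBRD1* and *SLC39A14* among them, none passed the test. In SK-OV-3, 3 of 13 uptake genes rose and 1 fell.

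The 5 genes that rose in PA-1 were *ISCA1*, *ABCB6*, *PCBP1*, *HERC2* and *MMS19*. *ISCA1*, which helps to assemble mitochondrial iron-sulfur clusters, was 70.7, 74 and 71.8 CPM with DMSO and 114, 109 and 106 CPM with BAY-850. It rose 1.52-fold (0.61, SE 0.057, edgeR adjusted p = 9.25e-06). *ABCB6*, a porphyrin transporter, rose from 37 ± 1.18 to 51.2 ± 2.2 CPM (SD, n = 3; 0.47, SE 0.0648, edgeR adjusted p = 0.000467). *PCBP1*, a chaperone that delivers iron to ferritin, rose 1.21-fold (0.28, SE 0.0554, edgeR adjusted p = 0.00856). *MMS19*, of the cytosolic iron-sulfur assembly, rose by 0.21 (SE 0.0601, edgeR adjusted p = 0.0454) and *HERC2*, a ubiquitin ligase, by 0.28 (SE 0.0785, edgeR adjusted p = 0.0459). *PCBP1* was lost without DMSO replicate 2 (adjusted p = 0.0736) and with scaling by library size only (0.0662). *MMS19* was lost without DMSO replicate 1, 2 or 3 or BAY-850 replicate 2 or 3 (between 0.0611 and 0.193), and *HERC2*, whose groups overlapped, without DMSO replicate 1 or 2 or BAY-850 replicate 1 or 2 (between 0.129 and 0.204). Both were also lost with the replicate block (0.0547 and 0.0627), with the GC trend removed (0.172 and 0.117) and in one fit of 12 libraries (0.104 and 0.0999). Scaling by library size lost both as well, with ribosomal RNA genes (0.205 and 0.2) or without them (0.0707 and 0.0714). *MMS19* was thus lost under 10 of 17 other settings and *HERC2* under 9. *HERC2* has 9 pseudogenes and *ISCA1* 5 in GENCODE, so the division of their reads is uncertain.

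In SK-OV-3 the responses of 3 of these genes were larger than that of any member. *LCN2*, lipocalin 2, which binds bacterial siderophores and carries iron with them, was 4.28, 2.43 and 3.76 CPM with DMSO and 27.4, 27 and 20.2 CPM with BAY-850. It rose 7.17-fold (2.84, SE 0.194, edgeR adjusted p = 2.34e-06). *CP*, ceruloplasmin, the ferroxidase that works with ferroportin, was 59.9, 61.6 and 67.8 CPM with DMSO and 143, 143 and 153 CPM with BAY-850. It rose 2.34-fold (1.23, SE 0.066, edgeR adjusted p = 3.67e-07), in cells where ferroportin itself was at most 0.639 CPM. *EPAS1*, the hypoxia-inducible factor HIF-2α, whose mRNA is known to hold an iron-responsive element in its 5′ UTR although the pattern above did not match it, was 57, 56.7 and 61.1 CPM with DMSO and 135, 133 and 134 CPM with BAY-850. It rose 2.32-fold (1.21, SE 0.0565, edgeR adjusted p = 1.05e-07). For each of them the treated libraries were all above the controls. *LCN2* and *CP* were too low in PA-1 to be tested there, at most 0.31 and 0.421 CPM.

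Smaller responses in SK-OV-3 ran in both directions within a role, and the counts below stand beside 20.4% of all genes called there, 10.8% higher and 9.56% lower. Of 15 tested genes of haem metabolism, *BLVRB*, a biliverdin reductase, rose by 0.44 (SE 0.084, edgeR adjusted p = 0.00354), while *HMOX1*, the haem oxygenase that frees iron, fell from 75.4 ± 2.29 to 54.8 ± 9.17 CPM (SD, n = 3; -0.45, SE 0.098, edgeR adjusted p = 0.00754). Without BAY-850 replicate 3 the change of *HMOX1* was smaller (-0.33, edgeR adjusted p = 0.0022). *FECH*, which inserts iron into haem, fell by 0.39 (SE 0.0623, edgeR adjusted p = 0.00113). Of 26 tested genes of mitochondrial iron and iron-sulfur clusters, 4 rose and 1 fell, among the risers *SLC25A28*, a mitochondrial iron importer (0.47, SE 0.124, edgeR adjusted p = 0.0207), *CIAO3*, listed under its older symbol *NARFL* (0.41, SE 0.0923, edgeR adjusted p = 0.00974), and *ISCA2* (0.39, SE 0.105, edgeR adjusted p = 0.0214). In the turnover of IRP2 and ferritin, 2 of 4 genes fell: *HERC2* (-0.38, SE 0.0766, edgeR adjusted p = 0.00491), which had risen in PA-1, and *SKP1* (-0.20, SE 0.0494, edgeR adjusted p = 0.0147). *CYBRD1*, a ferric reductase (0.31, SE 0.0813, edgeR adjusted p = 0.0212), and *SLC39A14*, which imports iron not bound to transferrin (0.29, SE 0.0708, edgeR adjusted p = 0.0129), rose, and *FURIN*, the protease that cuts hepcidin's precursor, fell (-0.22, SE 0.0565, edgeR adjusted p = 0.0194). Without DMSO replicate 2 the calls of *CYBRD1*, *SLC39A14*, *FURIN*, *SKP1*, *SLC25A28*, *CIAO3* and *ISCA2* were lost (adjusted p between 0.0509 and 0.111), and without BAY-850 replicate 2 those of *CYBRD1*, *FURIN*, *SKP1*, *SLC25A28* and *ISCA2* (between 0.06 and 0.0913). *FURIN* and *SLC25A28* were also lost without DMSO replicate 3 or BAY-850 replicate 1 (between 0.0594 and 0.09), *ISCA2* without DMSO replicate 3 (0.0817) and *SKP1* without BAY-850 replicate 1 (0.0605). The call of *CYBRD1* was also lost with all 12 libraries in one fit (0.0656).

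**Figure D4:**
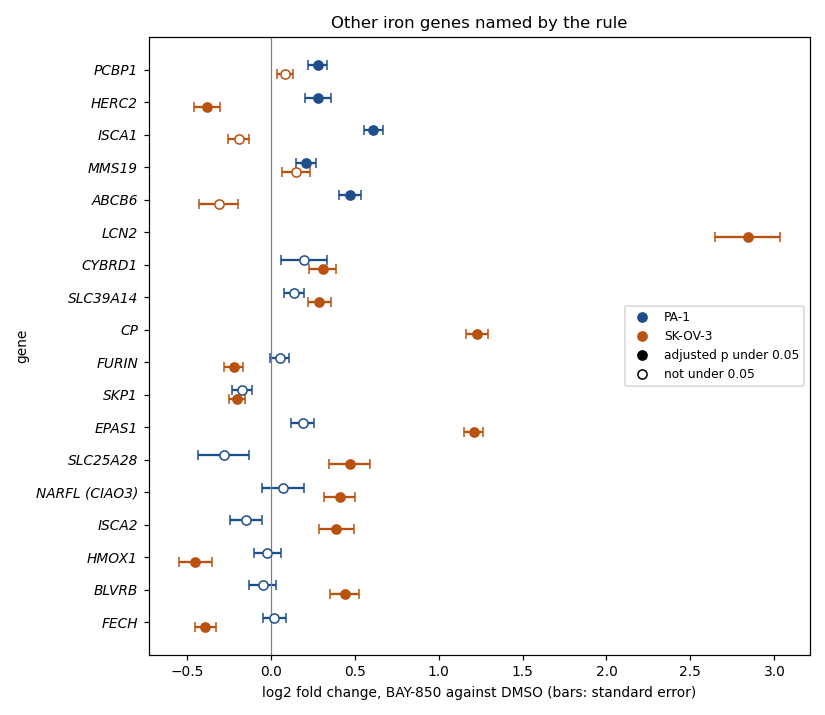
log2 fold change with BAY-850 against DMSO (horizontal axis) and its standard error for the other iron genes named by rule, in PA-1 (blue) and SK-OV-3 (orange); filled points have an adjusted p under 0.05 in edgeR's quasi-likelihood test. *LCN2*, *CP* and *EPAS1* stand at 2.84, 1.23 and 1.21 in SK-OV-3, and *ISCA1* and *ABCB6* at 0.61 and 0.47 in PA-1.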

How the data were processed

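RNA-seq of 12 libraries was used. The values the authors deposited are expected counts, 1 per gene symbol and library, estimated by RSEM 1.2.15 with Bowtie2 2.1.0 on hg38 per the labels, with no normalization between libraries, and the annotation is not given in the sources used here. The extract protocol names oligo-dT beads and dUTP strand marking, and the design text instead names removal of ribosomal RNA. Replicates are called biological, and what separates them is not stated.

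After rounding to integers, counts were scaled by TMM and filtered by filterByExpr in edgeR 4.0.16 (R 4.3.3). BAY-850 was compared with DMSO within each line by the quasi-likelihood test, Benjamini-Hochberg adjustment ran over all genes tested, and a gene was called at an adjusted p under 0.05. The difference between the lines' responses is the interaction term of a fit of all 12 libraries, coded as SK-OV-3 minus PA-1. CPM were scaled by TMM over all libraries, with the SD over 3. The standard error is the log2 fold change divided by the square root of F. The fits were also run on simulated counts with known changes and the same dispersion for all genes. That simulation held no GC trend and no loss of low genes from a library, so it does not test the effect of either.

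All 9 members were named. Of 85 other iron genes, up to 3 per list and line were named, with the largest changes among those called and at least 1 CPM on average. The 9 members and all lists were chosen with earlier results of these data known. Gene positions, transcript lengths and UTRs come from GENCODE release 29, which is not necessarily the annotation behind the counts. Stem pairs of the hairpin pattern were Watson-Crick or G with T. The alternatives were DESeq2 1.42.0, RLE factors, library size with and without ribosomal RNA genes, no filter, at least 10 counts in every library, limma-voom (limma 3.58.1), removal of each library's GC trend, sums with pseudogene rows, the replicate number as a block, all 12 libraries in one fit, and each library left out in turn. Depth leaves genes under 1 CPM, such as *SLC40A1*, with few counts, and the floor given for *SLC40A1* covers counting error only. Standard errors come from the fits and include the spread between replicates.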

Additional observations from a re-analysis of the deposited data

Results flagged for a closer look

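For 4 of the 9 members the response to BAY-850 differed between the lines by the interaction term of edgeR's quasi-likelihood test. The same term called 14.5% of 16830 genes, and the members were chosen with earlier results of these data known. The differences, SK-OV-3 minus PA-1 on the log2 scale, were -0.87 for *TFRC*, -0.67 for *STEAP3*, -0.36 for *ACO1* and 0.37 for *FTH1*. *TFRC* and *STEAP3* kept the call under all 22 other settings, *ACO1* under 21 and *FTH1* under 19.

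Among the other iron genes named, 6 had a response that differed by at least 1.5-fold between the lines at an adjusted p under 0.05. These genes had been named for large changes within a line, which favours such differences. The interaction term called 14.5% of 16830 genes at any size, and the share that also reached 1.5-fold was not computed. The count therefore says nothing particular about iron genes. *CP* also differed by more than 1.5-fold, without passing (-1.05, SE 0.805, edgeR adjusted p = 0.433). Its negative sign rests on levels of at most 0.421 CPM in PA-1, while *CP* rose 2.34-fold in SK-OV-3. The difference was -0.81 for *ISCA1* (SE 0.0797, edgeR adjusted p = 9.25e-06), -0.80 for *ABCB6* (SE 0.113, edgeR adjusted p = 0.000269) and -0.67 for *HERC2* (SE 0.125, edgeR adjusted p = 0.00222). It was 1.01 for *EPAS1* (SE 0.084, edgeR adjusted p = 1.51e-06) and 0.73 for *SLC25A28* (SE 0.22, edgeR adjusted p = 0.0357), the latter lost without any one library but BAY-850 replicate 3 of either line (adjusted p between 0.0534 and 0.0884). For *LCN2* it was 3.40 (SE 0.584, edgeR adjusted p = 0.00123), on counts in PA-1 of at most 0.31 CPM, and limma-voom did not call it (adjusted p = 0.0821).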

How the results depend on the processing

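The count of members called was 2 in PA-1, and 1 with scaling by library size only or with the GC trend removed. It was 4 in SK-OV-3, 2 with all 12 libraries in one fit, and 5 with the GC trend removed. Leaving out each library in turn gave 1 to 2 in PA-1 and 1 to 4 in SK-OV-3, with 1 in PA-1 without DMSO or BAY-850 replicate 2, 1 in SK-OV-3 without DMSO replicate 2 or BAY-850 replicate 1 or 2, and 2 there without DMSO replicate 1 or 3. The 4 calls of the difference between responses became 3 without PA-1 DMSO replicate 3, SK-OV-3 DMSO replicate 2 or 3, and with library size only, and the 7 between untreated lines stayed 7 under all 16 alternatives.

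Some members without a call changed sign. In PA-1, *FTL* was -0.0076 and *IREB2* 0.084 on the log2 scale with the GC trend removed, and *IREB2* was -0.066 to 0.033 with each library left out. In SK-OV-3 the same range was -0.033 to 0.045 for *NCOA4* and -1.06 to 0.20 for *SLC40A1*. For *SLC40A1* the difference between responses was -1.19 by limma-voom, -0.12 with the replicate block and -0.02 to 1.26 without a library, and that between untreated lines was -0.056 to 0.97. The log2 change of the *FTH1* to *FTL* ratio in PA-1 was -0.004 to 0.10 without a library. The cause was not tested.

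Over all genes, PA-1 gave 1085 calls, against 1737 by DESeq2, 580 with the GC trend removed, 683 in one fit of 12 libraries, 340 to 1228 without a library, and 466 with library size only, where 235 were higher and 231 lower in place of 707 and 378. SK-OV-3 gave 3130 calls, with 1781 to 3902 without a library. Library size only also turned the split of the difference between responses from 1128 higher and 1307 lower to 1062 and 773. The replicate numbers did not pair the samples (correlations of deviations between -0.0812 and 0.0416). With the number as a block, 2 members were called in PA-1, 3 in SK-OV-3 without *SLC11A2*, 4 for the difference and 7 between untreated lines, and of the other iron genes *MMS19* and *HERC2* lost their calls in PA-1. Over the other iron genes, 5 calls in PA-1 became 2 with library size only, 3 with the block or in one fit, and 2 to 7 without a library, and 17 in SK-OV-3 became 7 to 20 without a library. In one fit of 12 libraries SK-OV-3 gave 22, with 10 higher and 12 lower in place of 10 and 7. This depth left *SLC40A1* at 28 counts or fewer, where no change could be measured.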
